A study of Mus musculus with 3 samples.

Results

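The cytosolic ribosomal protein genes are the genes for the protein parts of the ribosome outside mitochondria. They were chosen by symbol alone, as rows named Rpl or Rps with a number and at most a short suffix, together with Rpsa, Rplp0, Rplp1, Rplp2 and Rpl13a, and without rows named as pseudogenes and without the Rps6k kinases. The rule found 84 of 27998 genes, of which 31 belong to the small (40S) subunit, 43 to the large (60S) subunit and 3 to the stalk (Rplp0, Rplp1 and Rplp2). The other 7 are paralogs, that is related copies with symbols ending in l or l1 (Rpl3l, Rpl6l, Rpl7l1, Rpl10l, Rpl22l1, Rpl39l and Rps27l).

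The study asked how adult microglia, the resident macrophages of the central nervous system, come to divide in the spinal cord after a nerve injury. YFP (+) cells were sorted from the lumbar cord of C57BL/6 mice, young adults heterozygous for Cx3cr1-creER-yfp, in which the Cx3cr1 promoter drives YFP and an inducible Cre. The 3 groups were naive animals and animals taken 24 h or 48 h after sciatic nerve transection, and every animal of every group carried the reporter allele. Cells of 3 animals were pooled into 1 library per group, so there is no replicate, no p-value is given, and every interval below covers counting error only.

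The joined matrix marks the libraries by a barcode suffix of 1, 2 or 3, and no label ties a suffix to a time point. The libraries are therefore called library 1, 2 and 3 of unknown time point, and a difference between them cannot be told apart from a difference between runs, pools or cell preparations. Library 1 stood apart, with 609 cells at a median of 2218 UMIs (unique molecular identifiers, each marking 1 captured transcript), against 3591 cells at 5952 and 3322 cells at 5742. All cells were thinned to 2000 UMIs, which left 408, 3569 and 3284 cells. Of 7496 barcode sequences, 24 occurred in 2 libraries and 1 in all 3. The 10 microglia markers summed to 27563, 23307 and 26344 CPM (counts scaled to 1000000 UMIs). The 7 monocyte markers summed to 7.35, 2.80 and 2.89, the 7 perivascular macrophage markers to 1.23, 1.82 and 0.914, the 4 oligodendrocyte markers to 76.0, 64.0 and 73.4 and the 3 endothelial markers to 25.7, 16.1 and 20.6. Neuron and astrocyte markers reached at most 1.68 each and red blood cell markers 4.34, and Cd163, Lyve1, Ly6c2 and Cldn5 were at 0 in all 3 libraries at this depth.

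A ribosome holds nearly all of these proteins in single copies, each bound to ribosomal RNA, apart from the stalk proteins P1 and P2, which sit on it in pairs and recruit the translation factors. The mRNAs of vertebrate ribosomal proteins typically begin with a C and a run of pyrimidines, the 5′ terminal oligopyrimidine tract, through which their translation is raised or lowered together by growth signals. Ribosome production is known to follow cell growth and the oncoprotein Myc.

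Start windows are shown for 4 members with such a tract in RefSeq and 2 without, from the ends and the middle of the ratios described below. Each window is 30 bases long on the strand of the gene, from 15 bases before the annotated RefSeq start on build GRCm38.p6. Capitals mark the tract, defined as a C followed by at least 4 bases that are each C or T, searched on the transcribed strand.
Rpl14, chr9:120571502-120571531, plus strand: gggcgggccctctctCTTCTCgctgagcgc
Rps6, chr4:86857353-86857382, minus strand: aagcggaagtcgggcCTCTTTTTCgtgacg
Rps27, chr3:90213634-90213663, minus strand: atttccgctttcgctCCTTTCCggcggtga
Rpl15, chr14:18270972-18271001, minus strand: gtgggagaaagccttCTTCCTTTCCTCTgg
Rpl41, chr10:128549154-128549183, minus strand: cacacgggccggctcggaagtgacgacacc
Rpsa, chr9:120127751-120127780, plus strand: gtgggttatttaaggacgtcatttccggcc

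The count of tracts depended on the annotation. The RefSeq table matched 63 of 84 members (75%), too few for a check of the set, which is void for that reason. In it 13 members (20.6%) had the tract at the start base, against 813 of 27025 genes (3.01%). The GENCODE M21 transcripts, taken up after the RefSeq values were seen, matched all 84 members and gave 8 with the tract at the first base (9.52%), against 491 of 21901 coding genes (2.24%). Only 1 member, Rps21, had it in both. Rpl14, Rps6, Rps27 and Rpl15, shown above with a tract, had none at the GENCODE first base. Rpsa, shown without one, had a tract near that base in GENCODE. Tracts starting up to 10 bases away, counted as well, brought RefSeq to 39 members (61.9%, against 34.4% of genes). They brought GENCODE to 24 members (28.6%, against 17.7% of coding genes). In this wider count initiation factors had 36.8%, mitochondrial ribosomal proteins 24.3%, genes of ribosome biogenesis 23.5% and the 9 elongation factors 11.1%. At the GENCODE first base these lists had 7.89%, 5.41%, 1.96% and 0%. Of the 4 ribosome parts outside the naming rule, 2 had a tract in the wider count and 1 at the first base. Over the members with a measured ratio, the 8 with a GENCODE tract had a median log2 ratio of library 3 over 2 of -0.33, and the other 73 had -0.31. The 73 are not members without a tract, since they hold Rpl14, Rps6, Rps27 and Rpl15, each with a tract in RefSeq. The split thus cannot show whether members with and without a tract moved alike.

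At equal depth the members made up 8.95%, 11.2% and 8.94% of all UMIs, for libraries 1, 2 and 3 in turn. The exact Clopper-Pearson 95% intervals ran from 8.89 to 9.02, from 11.19 to 11.24 and from 8.91 to 8.96. Library 2 was thus the high one, and libraries 1 and 3 differed by less than their counting intervals. The order of those 2 was not stable, since another seed gave 8.95% and 8.97% for libraries 1 and 3, and all cells without thinning, shallow cells included, gave 8.68% and 9.01%. In single cells the share had a median of 8.70%, 11.1% and 8.90%, with a 5th to 95th percentile range of 5.87 to 13.3, 9.15 to 13.7 and 7.15 to 10.9. In library 2, 97.7% of cells lay above the median of library 1, whereas in library 3 only 3.78% of cells lay above the median of library 2. Among cells with an original depth of 2000 to 4000 UMIs, a band chosen after the values were seen, the shares were 8.90%, 10.5% and 8.70%.

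**Figure D1:**
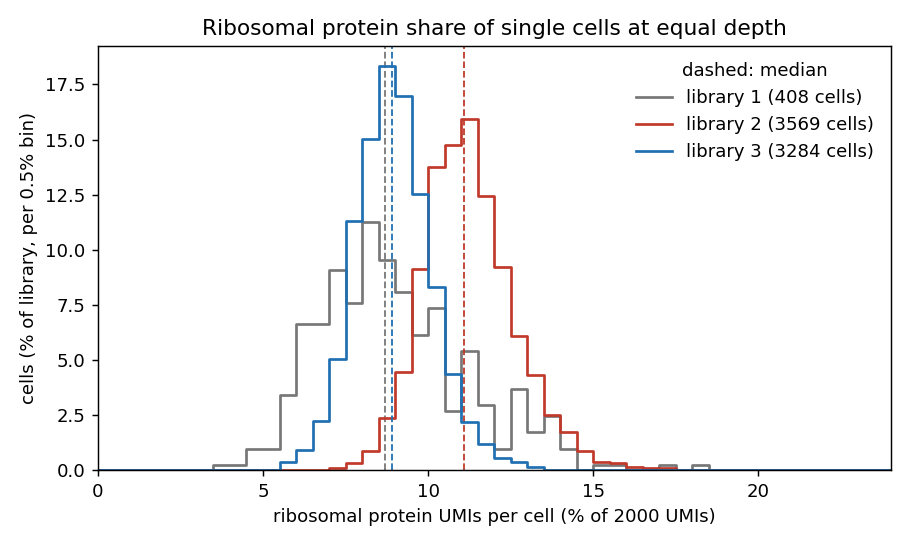
Distribution over cells of the ribosomal protein share (x axis, percent of 2000 UMIs per cell) as percent of the cells of each library per 0.5% bin (y axis), with dashed lines at the medians of 8.70% (library 1, 408 cells), 11.1% (library 2, 3569 cells) and 8.90% (library 3, 3284 cells). Library 2 lies to the right of library 3, and library 1 is the widest.

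The median cell held UMIs of 66, 70 and 67 members. The variance of the summed member UMIs over cells was 11.5 times its mean in library 1, 3.57 times in library 2 and 3.04 times in library 3, where counting alone would give about 1. The sum thus spread widest in library 1, the shallow library.

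Of the 84 members, 81 reached a mean of 50 CPM over the libraries and were compared as single genes. Rpl3l had no UMI in any cell and Rpl10l had 1 UMI in all. Rpl39l had 162 UMIs over all cells, and at equal depth it was at 0, 2.38 and 3.81 CPM. The floor of the 81 was Rpl7l1 at a mean of 132 CPM, and the top was Rps29 at 4507.

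Rps29, a small zinc-binding protein of the 40S subunit, was at 4446 CPM in library 1, 5048 in library 2 and 4028 in library 3. It alone gave 4.97%, 4.50% and 4.51% of the members' UMIs. Among the next 9 by mean level were Rplp1, Rpl37a, Rps14, Rpl41, Rpl13a, Rps27, Rps19 and Rpl37. These are parts of the core ribosome. Because each 3′ UMI marks 1 transcript whatever its length, these levels were not divided by gene length. They still depend on how well the end of each transcript is captured and uniquely mapped.

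Between libraries 2 and 1, the median log2 ratio over the 81 members was 0.31, beside -0.02 over all 3224 genes of at least 50 CPM. Summed, the members were 1.252 times as abundant in library 2 (1.243 to 1.262). In all, 71 members were above a log2 ratio of 0 and 10 below, while the share of all genes above 0 was not counted. More than 25% higher were 38 members, where 26.1% of all genes were. Another 5 were lower by more than 20%, the same fold downwards, with 26.5% of all genes so. By more than 1.5 times, 15 were higher (12.5% of all genes) and 3 lower (11.1%).

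Between libraries 3 and 1, which share library 1 with the comparison above, the members' median log2 ratio was 0.00, beside -0.02 over all genes. Their summed ratio was 0.998 (0.991 to 1.006). In this pair 41 members were above 0 and 40 below, while the share of all genes above 0 was not counted. Here 12 were more than 25% higher (23.1% of all genes) and 8 more than 20% lower (25.8%), so both counts were below the background. Of the members, 79 reached a mean of 200 CPM, but only 719 of the 3224 compared genes did. Genes with few UMIs have a larger counting error and pass these folds more easily by counting alone. The lower counts thus cannot show that members changed less than other genes. By more than 1.5 times, 1 was higher (10.9%) and 4 lower (12.3%).

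Between libraries 3 and 2, the comparison that does not use the shallow library, the members' median log2 ratio was -0.32, beside -0.02 over all genes. Their summed ratio was 0.797 (0.794 to 0.800). Of the 81 members, 78 were below 0, while the share of all genes below 0 was not counted. Lower by more than 20% were 39 members, where 14.0% of all genes were. None was more than 25% higher (10.0% of all genes). At 1.5 times, 1 member was lower (2.67%) and none higher (3.69%), so the shift was shared by nearly all members and modest in each. The standard deviation over members of the log2 ratio was 0.13 here, against 0.39 for library 2 over 1 and 0.35 for library 3 over 1. The counting error of a single member was smaller than these, at 0.027, 0.059 and 0.060.

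**Figure D2:**
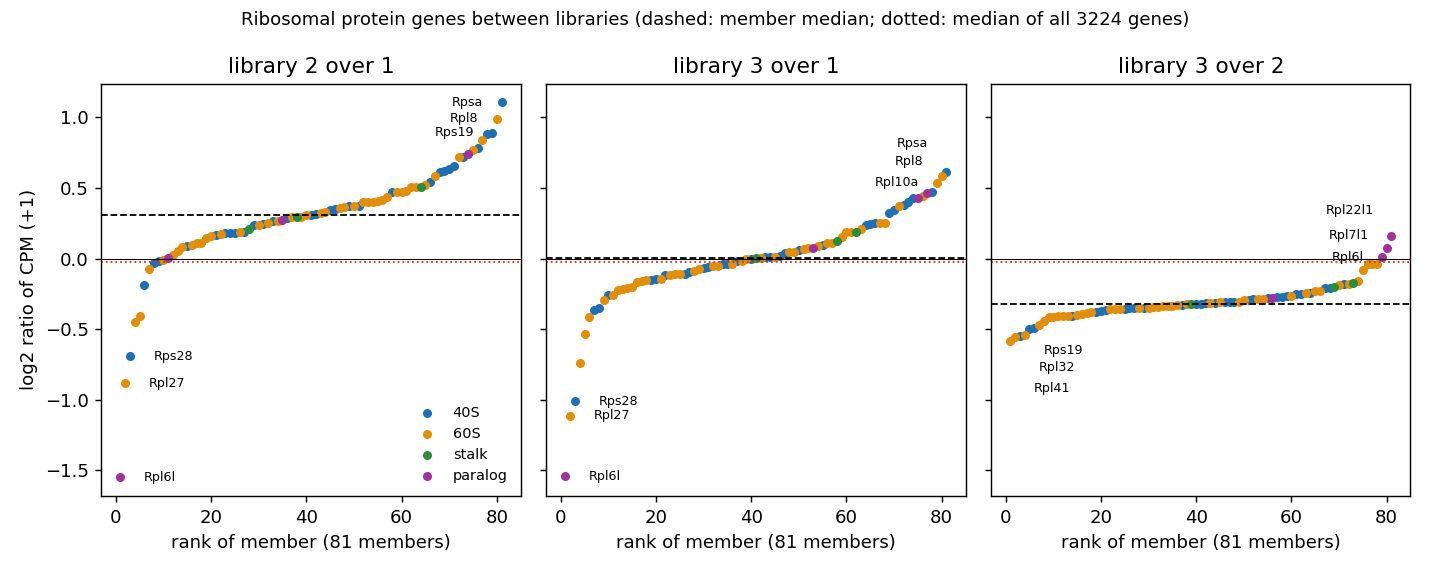
Log2 ratio of CPM (y axis, pseudocount 1) of the 81 members ranked within each comparison (x axis), coloured by subunit group, with the member median dashed (0.31, 0.00 and -0.32) and the median of all 3224 genes dotted (-0.02 in each). Points of library 3 over 2 form a narrow band below 0, while both comparisons with library 1 have long ends.

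Both subunits moved by like amounts. The summed ratio of library 2 over 1 was 1.26 for 40S members, 1.251 for 60S members and 1.26 for the stalk. For library 3 over 2 it was 0.799 for 40S, 0.786 for 60S and 0.857 for the stalk. The 7 paralogs, of which 4 had enough counts to compare, summed to 0.979 and 0.987 in the same comparisons. Their intervals (0.908 to 1.06 and 0.952 to 1.02) held 1. Both of these sums mix opposite moves. Rpl6l, annotated as a processed pseudogene, was far lower in library 2 than in library 1, while Rpl22l1 and Rps27l were higher and Rpl7l1 was level. From library 2 to library 3, Rpl22l1 was higher and Rps27l lower. No test of a difference between these groups can be made with 1 library each.

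Among 40S members, Rpsa, which also names a laminin receptor at the cell surface, was at 426 CPM in library 1, 920 in library 2 and 653 in library 3. It had the highest ratio of all members in both comparisons with library 1, at a log2 ratio of 1.11 for library 2 over 1 and 0.61 for library 3 over 1. It was found in 54.2%, 83.7% and 73.2% of cells.

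Rps19, mutated in Diamond-Blackfan anaemia, was at 1452, 2694 and 1841 CPM, with log2 ratios of 0.89 (library 2 over 1) and -0.55 (library 3 over 2). Rps14 was at 1597, 2637 and 2217, and its log2 ratio of library 3 over 1 was 0.47. In Rpsa, Rps19 and Rps14, library 2 was the highest and library 1 the lowest.

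Rps28 ran the other way between libraries 1 and 2. It was at 1697 CPM in library 1, 1050 in library 2 and 841 in library 3, with log2 ratios of -0.69 for library 2 over 1 and -1.01 for library 3 over 1. Its log2 ratio of library 3 over 2 was -0.32, like the median of all members. Rps27 was likewise highest in library 1, at 2319, 2036 and 1796.

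Among 60S members, Rpl8, a protein near the catalytic centre, was at 788 CPM in library 1, 1567 in library 2 and 1182 in library 3. Its log2 ratios were 0.99 (library 2 over 1) and -0.41 (library 3 over 2). Rpl10a was at 741, 1328 and 1075, with 0.84 and -0.30. These 2 members followed the order of Rpsa.

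Rpl41, the smallest ribosomal protein, had the lowest ratio of library 3 over 2 of all members, at 1980, 2645 and 1763 CPM and a log2 ratio of -0.59. Rpl32 was at 1411, 2403 and 1633, with a log2 ratio of -0.56 for library 3 over 2. Rpl37a was at 2120, 3011 and 2066, with -0.54. Of the 81 members Rpl41 was the only one past 1.5 times in that comparison.

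Of all 81 compared members, 10 were highest in library 1, among them 4 of the 31 of the 40S subunit and 1 of the 4 compared paralogs. The share of all genes highest in library 1 was not counted. Of the 43 members of the 60S subunit, 5 were highest there, namely Rpl27, Rpl23a, Rpl15, Rpl10 and Rpl22. The last 2 were so by little over library 2. Rpl27 was at 728 CPM in library 1, 395 in library 2 and 336 in library 3, with log2 ratios of -0.88 for library 2 over 1 and -1.11 for library 3 over 1. Rpl23a was at 1104, 808 and 763, with -0.45 and -0.53. Rpl15 was at 662 in library 1 and 396 in library 3, with library 2 between them and log2 ratios of -0.40 and -0.74. These 5 stood in the order library 1, then 2, then 3. At the other end, Rpl18 was at 669, 933 and 910, with a log2 ratio of library 3 over 2 of only -0.04.

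In the stalk, Rplp1 was at 2230, 2738 and 2431 CPM, Rplp0 at 1208, 1721 and 1376, and Rplp2 at 1261, 1457 and 1265. All 3 were highest in library 2. Their log2 ratios of library 3 over 2 were -0.17, -0.32 and -0.20, for Rplp1, Rplp0 and Rplp2 in turn.

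The paralogs did not share 1 pattern. Rpl22l1, a relative of Rpl22, was at 271, 327 and 366 CPM and had the highest ratio of library 3 over 2 of all members, a log2 ratio of 0.16 (ratio 1.06 to 1.19). Its parent Rpl22 was at 451, 448 and 338, with -0.41. Rpl22l1 was thus lower than Rpl22 in libraries 1 and 2 and higher in library 3.

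Rpl7l1 was at 130, 130 and 137 CPM, with a log2 ratio of library 3 over 2 of 0.08 and an interval of its ratio (0.961 to 1.16) that held 1. Its parent Rpl7 was at 739, 978 and 798, with -0.29. Rps27l, a p53 target in mouse and human cells, was at 205, 343 and 283, with 0.74 for library 2 over 1 and -0.28 for library 3 over 2. Its parent Rps27 had -0.19 and -0.18.

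Rpl6l, annotated as a processed pseudogene on chromosome 10, was at 328 CPM in library 1, 111 in library 2 and 112 in library 3. Its log2 ratios of -1.55 (library 2 over 1) and -1.54 (library 3 over 1) were the lowest of all members, and its parent Rpl6 was at 1381, 1530 and 1195. Of the 91-base stretches in the last 400 bases of its transcript, 85.2% also occur in another annotated gene. A read lying within such a stretch cannot be assigned to 1 gene by its sequence alone. How such reads entered the counts was not examined.

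The members on the X chromosome are Rpl39, Rpl10, Rps4x and Rpl36a. Rps4x was at 1411, 1801 and 1471 CPM and Rpl36a at 648, 833 and 623, both highest in library 2. Rpl39 was at 1479, 1566 and 1204. Rpl10, which completes the 60S subunit at a late step of its assembly, was at 1669, 1586 and 1544, with a log2 ratio of library 3 over 2 of -0.04, so it stayed nearly level. Rpl10 also shares the whole of its transcript end with listed Rpl10-ps3.

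Near-identical copies are common in this family, since ribosomal protein mRNAs have been copied back into the genome many times. A search after the first values were seen found 29 genes of the matrix outside the naming rule that share at least 1 stretch of 91 bases with the last 400 bases of a member's transcript. They are called copies here, although the shared part ran from 0.323% of a member's stretches (Gm4978) to 100% (Rpl10-ps3 and Rpl9-ps6). Wdr89, a coding gene, shared 24.2% of those of Rplp2. At equal depth the 29 genes held 0.710% of UMIs in library 1, 0.355% in library 2 and 0.294% in library 3. Of these copies, 15 were abundant enough to compare. In library 2 over 1, 14 of them were lower by more than 1.5 times (11.1% of all genes), with a median log2 ratio of -1.49, and the median for library 3 over 2 was -0.08. For library 3 over 1, 14 of the 15 were lower by more than 1.5 times (12.3% of all genes), with a median of -1.44. Both counts include Rps26-ps1, at 79.7, 38.9 and 37.3 CPM. It reached the mean of 50 CPM only through library 1, so the filter favoured its being lower in the others. The copies were thus higher in library 1 than in both others, while the members' summed level in library 1 was below that of library 2 and near that of library 3.

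Windows of 30 bases around a differing base are shown for 2 members and their copy, since they show how little separates the counts of the pair. Sequences are from GENCODE M21 transcripts, and capitals mark the base that differs. The positions given here are those of the whole gene, not of the window.
Rpl41 (chr10:128548114-128549305, minus strand): ccaagtaagccagccCgtgcacctacgacg
Gm10076 (chr14:105681828-105682211, plus strand): ccaagtaagccagccTgtgcacctacgacg
Rps26 (chr10:128624534-128626747, minus strand): aagaaacaacggtcgCgccaaaaagggccg
Rps26-ps1 (chr8:107439131-107439579, minus strand): aagaaacaacggtcgTgccaaaaagggccg

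Rpl41 and Gm10076 differed at 2 of 383 aligned bases and Rps26 and Rps26-ps1 at 4 of 400. Rps27 and Rps27rt did not differ over 341 aligned bases, and Rpl9 and Rpl9-ps6 not over 400. Rps27rt was at 974 CPM in library 1, 271 in library 2 and 248 in library 3, and Rpl9-ps6 was at 310, 73.6 and 74.8. Gm10076 was the exception among the 15, at 1020, 1251 and 821, which is the order of Rpl41 itself.

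**Figure D3:**
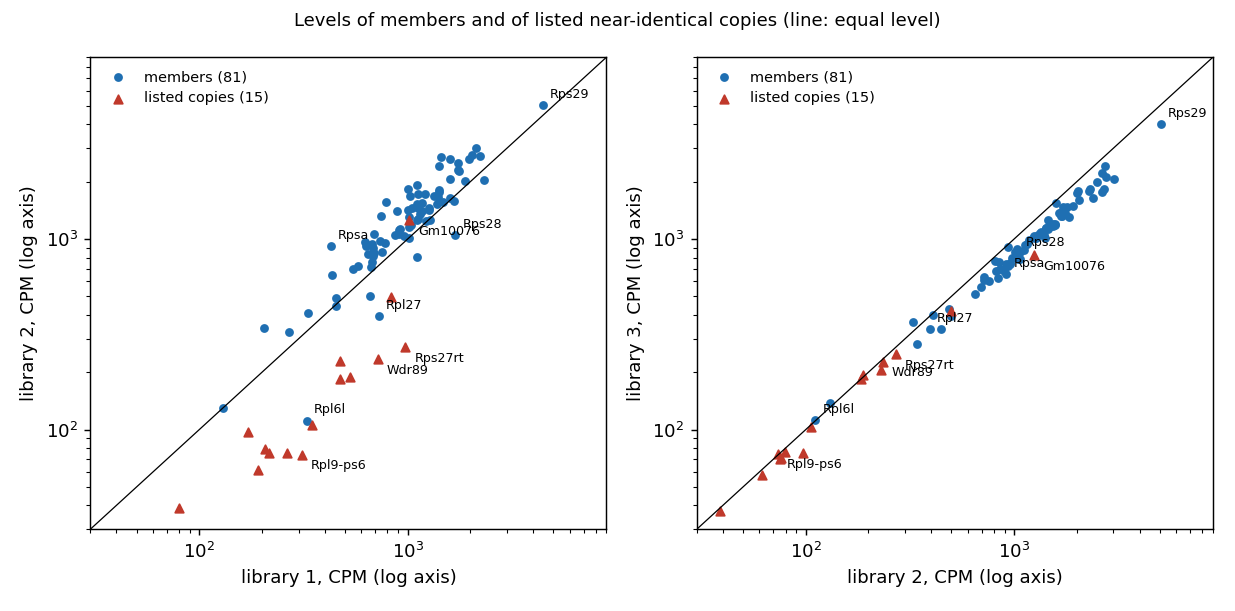
CPM on log axes of the 81 members (circles) and 15 listed near-identical copies (triangles), library 2 against library 1 on the left and library 3 against library 2 on the right, with a line of equal level. On the left, 14 copies lie below the line by more than 1.5 times while 71 of 81 members lie above it. Of these copies, Rps26-ps1 reached a mean of 50 CPM only through library 1. The share of all genes above the line was not counted. On the right, copies and members lie near or below the line.

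The 24 compared members with no such shared stretch had median log2 ratios of 0.39 for library 2 over 1, 0.06 for library 3 over 1 and -0.34 for library 3 over 2. The 57 with one had 0.29, -0.04 and -0.30. Rpsa and Rpl15 share none, while 86.5% of the stretches of Rpl27, 83.5% of Rpl23a and 33.2% of Rps28 occur elsewhere. Adding the 29 copies to the members brought the shares to 9.66%, 11.6% and 9.23% and the summed ratio of library 2 over 1 to 1.20. The part of the copies in the ratios of single members was not tested.

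Other parts of the ribosome that the naming rule leaves out include Fau, Rpl36al and Gnb2l1 (the scaffold Rack1). Fau, whose product is a ubiquitin-like protein joined to Rps30, was at 2257, 2175 and 1710 CPM. Rpl36al was at 398, 494 and 433 and Gnb2l1 at 281, 477 and 420. Fau and Rpl36al were lowest in different libraries, Fau in library 3 and Rpl36al in library 1.

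Lists of the wider translation machinery did not all go the way of the members from library 2 to library 3. In that comparison 14.0% of all genes were lower and 10.0% higher by the same fold. Sums here and in the next paragraph cover every gene of a list, while counts of genes cover only those of at least 50 CPM. Elongation factors, a list that also holds the related genes Eef1e1, Eef2k and Tpt1, summed to 0.925 (9 genes compared, none lower by more than 20%). The 1 gene of that list more than 25% higher was Eef1e1, which reached a mean of 50 CPM only through library 3 (40.4, 48.1 and 75.4 CPM). Mitochondrial ribosomal proteins summed to 0.904 (11 of 44 lower, none higher). Initiation factors, a list that also holds Eif4ebp1 and Pabpc1, summed to 1.13 (5 of 29 higher and 3 lower), with a median log2 ratio of 0.15. Much of that sum's rise came from Eif1, at 1249 CPM in library 2 and 1687 in library 3, and Eif4a1, at 904 and 1217. Genes of ribosome biogenesis, such as the nucleolar proteins Ncl and Npm1, summed to 1.22 (7 of 22 higher and none lower). Of these 7, Nolc1 reached a mean of 50 CPM only through library 3 (42.9, 46.2 and 64.9 CPM). Ncl was at 216, 270 and 374 CPM, and was thus highest in library 3, where the members were low.

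Nuclear genes of oxidative phosphorylation, the respiratory chain and ATP synthase, also moved the way of the members, with a summed ratio of 0.764 for library 3 over 2 (36 of 58 lower and none higher) and 1.51 for library 2 over 1 (46 of 58 higher and 2 lower). Over all genes 14.0% were lower and 10.0% higher in the first, and 26.1% were higher and 26.5% lower in the second. The mitochondrial genome summed to 0.789 and 1.66. The median mitochondrial share of a cell, over all cells before thinning and with shallow cells included, was 0.945%, 1.52% and 1.20%.

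**Figure D4:**
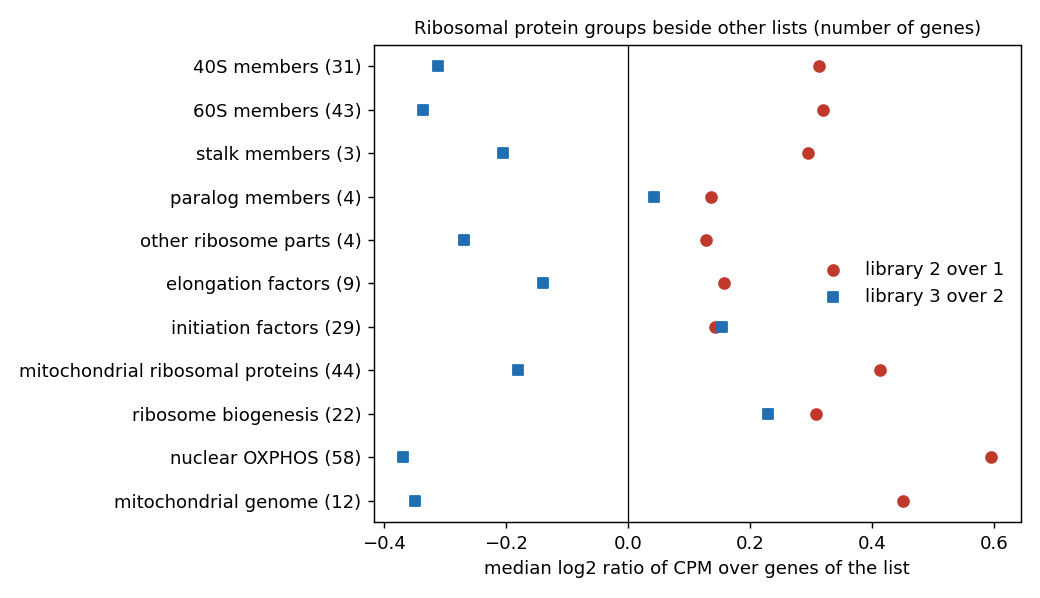
Median log2 ratio of CPM over the compared genes of each list (x axis) for library 2 over 1 (circles) and library 3 over 2 (squares), with the number of genes in brackets. Members of the 40S and 60S subunits lie right of 0 in the first and left of 0 in the second, while initiation factors and ribosome biogenesis lie right of 0 in both.

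Libraries also differed in gene lists that are no part of the ribosome. Immediate early genes, switched on within minutes of a stimulus and also by tissue handling, summed to 4538, 4702 and 33795 CPM, a ratio of 7.19 for library 3 over 2. Every compared gene of this list is among those the study reports as differing between time points after injury, in S-phase cells. The list is thus not independent of the study's own results, and its ratio is no separate finding. The members' share without its UMIs likewise leaves out genes already known to differ. Heat shock genes summed to 1376, 2642 and 4622. Without the UMIs of both lists, the members' share was 9.01%, 11.3% and 9.29%, and the ratio of library 3 over 2 was 0.823. Their further part in the result was not tested.

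Proliferation genes were found, by at least 1 UMI of 14 genes, in 13.2%, 76.6% and 23.8% of cells, for library 1, 2 and 3 in turn. The library with the highest ribosomal protein share was thus also that with the most such cells. The ratio of member UMIs in cells with these UMIs to cells without them, within a library, was 0.977, 1.01 and 0.998, with counting intervals from 0.956 to 0.998, from 1.005 to 1.015 and from 0.992 to 1.004. These intervals cover counting only, while the variance of the summed member UMIs over cells was 11.5, 3.57 and 3.04 times its mean. They are therefore narrower than the spread of the cells calls for. In library 2 the means per cell were 225 UMIs with and 223 without, and in library 3 they were 178 and 179. At this depth a dividing cell can have no such UMI and another cell a stray one, so the part of proliferation in the difference between libraries was not tested.

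Other measures were compared in the same way. From the lowest to the highest 1 in 3 cells by original depth, the members' UMIs were 1.11, 1.08 and 1.05 times as many in libraries 1, 2 and 3. By mitochondrial UMIs the ratio was 1.13, 1.06 and 1.05, and by nuclear oxidative phosphorylation UMIs 1.22, 1.07 and 1.06. By immediate early UMIs it was 0.902, 0.953 and 0.904, and by microglia marker UMIs 0.798, 0.909 and 0.932. It was closer to 1 by heat shock UMIs (1.01, 1.02 and 1.01), by mitochondrial ribosomal protein UMIs (1.02, 1.02 and 1.02) and by ribosome biogenesis UMIs (0.989, 1.003 and 1.04). As every cell was thinned to the same total, more UMIs of 1 set leave fewer for the others.

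**Figure D5:**
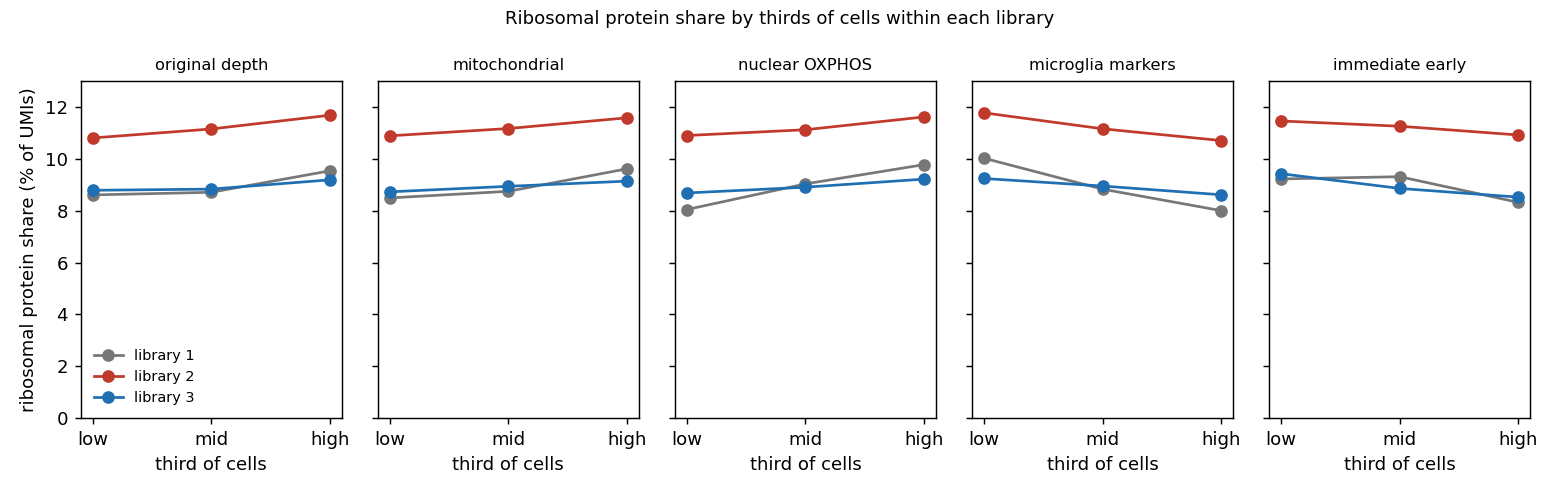
Ribosomal protein share (y axis, percent of UMIs) in the lowest, middle and highest 1 in 3 cells of each library (x axis), ranked by the measure named above each panel. Library 2 lies above libraries 1 and 3 in every panel, and the share goes up with depth, mitochondrial and oxidative phosphorylation UMIs and is lower in the highest than in the lowest cells by microglia marker and immediate early UMIs.

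Single members varied over cells little beyond counting in libraries 2 and 3. Variance over mean lies nearer 1 the fewer UMIs a gene has, so single members cannot be set against their sum by it. The 5 with the largest variance over mean, averaged over libraries, included Rps29, Rpl41, Rps28 and Rps27. For Rps29 it was 1.84 in library 1, 1.15 in library 2 and 1.14 in library 3, and for Rpl41 1.41, 1.20 and 1.12. These 4 were widest in library 1.

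Over cells, each member was compared with the sum of the other members, as a description, since the points share a library and a fixed total. Of 462 genes with at least 0.5 UMI per cell in every library, 78 were members, and their median Pearson correlation was 0.30, 0.15 and 0.13 in libraries 1, 2 and 3, with all 78 above 0. For the 384 other genes it was -0.02, -0.02 and -0.01. The 10 genes outside the rule most like the members by the median over libraries included Tmsb4x, Gm10076, Gm10073, Fth1, Fau, Pfn1, Eef1a1, Gm9843 and Ly86. Tmsb4x, a small actin-binding protein, led with 0.42, 0.36 and 0.24, and Eef1a1, an elongation factor, had 0.43, 0.15 and 0.10. Gm10076 and Gm10073 are among the listed copies. At the other end, and named after its values were seen, the nuclear RNA Malat1 had -0.34, -0.39 and -0.31.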

How the data were processed

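The authors deposited whole-number UMI counts per gene and cell, not normalized, as 1 joined matrix. The submitters' processing notes name Cell Ranger 2.1.1 and mm10. Which annotation was used for counting is not given in the sources used here, nor is any down-sampling on joining. The labels name a 3′ kit. Members and lists were chosen with earlier results of these data known.

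Cells were drawn down to 2000 UMIs each (without replacement, seed 1), shallower cells were left out, and UMIs were summed by barcode suffix and scaled to 1000000 (CPM). Log2 ratios used a pseudocount of 1. Genes with a mean of at least 50 CPM were compared, and called when more than 25% higher or 20% lower, or past 1.5 times. Shares have exact Clopper-Pearson intervals and ratios exact conditional binomial intervals (95%). These cover counting error only. No test between libraries was made. The sort excluded doublets per the methods, and no doublet caller was run here. The ratio step was tested on simulated data.

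The genes named were members without UMIs, the 10 highest by level, the 5 highest and 5 lowest of each ratio, paralogs and parents, X-linked and stalk genes and Rpsa, the 5 largest variances over mean, the 10 non-members most like the members over cells, ribosome parts outside the naming rule and cell type markers. Others were named after their values were seen. Positions and transcripts are GENCODE M21 (GRCm38), and start windows RefSeq (GRCm38.p6). Both annotations were searched for start tracts, RefSeq first. The GENCODE search sees only bases from the first base on. Copies were found by shared 91-base stretches among annotated transcripts, so copies outside the annotation are not counted. Protein length, composition and identity, which were planned, are not reported here. R 4.3.3 with edgeR 4.0.16 gave the TMM factors, and Python 3.11.15 with pandas 2.3.3, scipy 1.17.1, numpy 2.4.6 and matplotlib 3.10.9 all else. Alternatives were depth, seed, scaling, pseudocount, filters, members and cells, with effects given in the closing section. Some results that these rules would name are not reported here.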

Additional observations from a re-analysis of the deposited data

How the results depend on the processing

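Of 137 alternative values, 96 moved by no more than the counting interval (shares, ratios), the median counting error of a member (medians) or 1.5 times (counts). In the others library 2 kept the highest share. The 96 include every value of the cell filter before thinning. That filter changed nothing, since the cells it removes were already too shallow for thinning, so those values say nothing about stability. Shares in libraries 1, 2 and 3 were 8.68%, 11.4% and 9.01% without thinning, 9.04%, 11.4% and 9.05% without mitochondrial UMIs, 7.71%, 9.59% and 7.65% without the 5 most abundant members, and 9.32%, 11.6% and 9.23% with the ribosome parts outside the naming rule. Thinned to 1000 UMIs, library 1 had 8.54%. Another seed gave 11.17% and 8.97% in libraries 2 and 3, and removing early and heat shock UMIs 11.3% and 9.29%. Chosen after seeing the data were adding the listed copies (9.66%, 11.6% and 9.23%), members with no shared stretch (2.37%, 3.15% and 2.44%), and cells of 2000 to 4000 UMIs (10.5% and 8.70% in libraries 2 and 3). The median log2 ratio of library 2 over 1 was 0.40 without thinning, 0.47 as a mean of cell fractions, 0.39 for members with no shared stretch and 0.24 in the 2000 to 4000 band. That of library 3 over 1 was 0.066 at 1000 UMIs, 0.072 without thinning, 0.15 as a mean of cell fractions (19 members more than 25% higher, 5 more than 20% lower) and 0.058 for members with no shared stretch. That of library 3 over 2 was -0.29 with TMM scaling and -0.26 in the band, where 24 members were lower by more than 20%. The share of all genes past these folds was not counted in the alternative settings. In the main setting it was 23.1% higher and 25.8% lower for library 3 over 1, and 14.0% lower for library 3 over 2. With at least 3 proliferation UMIs the ratios were 1.13 (3 cells), 1.02 and 1.01. The cause of these moves was not tested. Depth limits library 1 most, where 201 cells were too shallow. No paired analysis was possible because each group is 1 library.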
